A study of Mus musculus with 11 samples.

Results

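The Hox clusters are 4 runs of homeobox genes that lie on mouse chromosomes 6 (Hoxa), 11 (Hoxb), 15 (Hoxc) and 2 (Hoxd). A set of 38 Hox genes was taken by name, out of 22218 protein-coding genes of the annotation, with 10 genes in Hoxa, 10 in Hoxb, 9 in Hoxc and 9 in Hoxd. Each cluster was followed from its first to its last listed gene plus 10 kb on either side. The 561090 bp of these 4 spans that were used hold 30 of the 131065 regions that had an ATAC-seq peak in at least 1 library. In ATAC-seq a transposase cuts DNA that is not wrapped tightly, so that a peak marks open chromatin.

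ATAC-seq peaks were compared between midbrain dopaminergic (DA) neurons and hindbrain serotonergic (5-HT) neurons of mouse embryos at E14.5, with 3 DA libraries and 2 5-HT libraries. The DA neurons were GFP-positive cells sorted from the ventral mesencephalon of TH-GFP embryos, in which the Th promoter drives GFP on a C57BL/6J background. The 5-HT neurons were YFP-positive cells sorted from rhombomeres r1, r2 and r3 of Mash1-CRE x ROSA YFP embryos. For both, transgenic males were mated with Swiss wild-type females, no treatment was given, and the tissue of several embryos was pooled for each sort. GFP reports any cell in which the Th promoter is active. The Cre acts wherever Mash1 has been expressed, which includes progenitors of other neuron classes, so neither reporter is limited to the named neurons. The 2 groups differ in region, reporter line and number of sorted cells at once, and these cannot be told apart. Nothing in the sources ties a library of one group to a library of the other, and the libraries of a group came from separate sorts.

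For each library the files give a score for every region, and 0 where no peak was called. This score carries no named scale, so it was read within a library, as the percent of that library's peaks that score no higher (percentile). The 3 DA libraries had peaks in 52803, 92939 and 94210 regions and the 2 5-HT libraries in 38705 and 22870. The read depth is unknown. A region that is open in fewer cells and a region missed in a library with fewer peaks cannot be told apart, which bears on every absence given here.

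Hox genes encode transcription factors that set the identity of segments along the head to tail axis, and their order in a cluster follows the order of their expression domains. In the neural tube the genes of the low-numbered paralogue groups reach farthest forward, into the hindbrain, with Hoxa2 at the front of the series, whereas the midbrain and rhombomere r1 lie ahead of the Hox domains. Where Hox genes are silent, Polycomb proteins commonly cover the clusters, and CTCF sites divide them into domains.

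Promoters of marker genes were read in the same way to check the labels of the cells. All 11 promoters of the DA list had a peak in all 3 DA libraries, against 6 of 11 in both 5-HT libraries, where all promoters stood at 58.5 and 48.4%. With equal numbers of peaks (the 22870 that score highest in each library) these were 7 and 5 of 11. At that number, all promoters stood at 40.2 and 44.7%. The promoter of Th, the rate-limiting enzyme of dopamine synthesis, scored 9.91, 10.6 and 8.45 in DA libraries 1 to 3 and had no peak in either 5-HT library. Of the 7 promoters of the 5-HT list, 2 had a peak in both 5-HT libraries, those of Tph2 and Gata3, and both also had one in every DA library. Fev, a transcription factor of 5-HT neurons, had a promoter peak in 5-HT library 1 alone (3.88). Slc6a4, the serotonin transporter, had one in the DA libraries (4.80, 6.56 and 3.76) and none in the 5-HT libraries. None of the 7 had a promoter peak in both 5-HT libraries and in no DA library, with all peaks or with equal numbers of peaks. Lmx1b and Slc18a2 are on the DA list as well, so a peak at their promoters cannot tell the labels apart. At equal numbers Slc6a4 and Fev had no peak in any library, Gata2 had one in 5-HT library 1 alone (4.20), and Gata3 had one in both 5-HT libraries and in DA library 1. Promoter peaks alone thus do not check the 5-HT label. The study reports Tph2 protein and mRNA enriched in the YFP-positive cells, and these measures were not used here. Promoter peaks at Th and Lmx1a were found in the DA libraries only. With equal numbers of peaks this held for Th, and Lmx1a had no peak in any library.

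Markers of position and of other cells were counted too. Otx2, a midbrain gene, scored 5.24, 5.62 and 7.54 at its promoter in DA libraries 1 to 3, 4.53 in 5-HT library 1 and 0 in 5-HT library 2. Of the hindbrain genes, Egr2 had a promoter peak in all 5 libraries and Gbx2 in none. At equal numbers of peaks Otx2 had one in DA library 3 and 5-HT library 1, and Egr2 in all libraries but DA library 2. A peak in all 3 DA libraries was found at 3 of 3 GABAergic, 1 of 1 glutamatergic, 1 of 4 noradrenergic and motor neuron, 4 of 4 progenitor, 0 of 2 astrocyte, 1 of 2 endothelial, 0 of 1 pericyte and 0 of 2 microglial promoters. In both 5-HT libraries the numbers were 2 of 3, 0 of 1, 1 of 4, 4 of 4, 0 of 2, 0 of 2, 0 of 1 and 0 of 2 in the same order. At equal numbers of peaks, the GABAergic promoters stood at 0 of 3 in all 3 DA libraries against 2 of 3 in both 5-HT libraries, the noradrenergic and motor neuron promoters at 0 of 4 against 1 of 4, and the progenitor promoters at 1 of 4 against 3 of 4. The glutamatergic promoter stood at 1 of 1 against 0 of 1, and the astrocyte, endothelial, pericyte and microglial promoters at 0 in both. With all peaks used, 58.5% of all promoters had a peak in all 3 DA libraries and 48.4% in both 5-HT libraries. At equal numbers of peaks these shares were 40.2 and 44.7%. The part of other cells in the Hox results was not tested.

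Promoters of Hox genes were almost without peaks in both cell types. A promoter was taken as 1 kb upstream to 100 bp downstream of any protein-coding transcription start site (TSS) of the gene, and an overlap of 1 bp was counted. A peak in all 3 DA libraries lay at 1 of 38 Hox promoters, against 58.5% of all protein-coding promoters. A peak in both 5-HT libraries lay at 1 of 38, against 48.4%, and a peak in all 5 libraries at 1 of 38, against 48.1%. It was the same gene, Hoxa7, in the 3 counts. No Hox promoter had a peak in the 3 DA libraries only (1.94% of all promoters) or in the 2 5-HT libraries only (0.0225%). At 31 of 38 Hox promoters no library had a peak, against 35.5% of all promoters.

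By library, 4, 7 and 1 of the 38 Hox promoters had a peak in DA libraries 1, 2 and 3, and 3 and 1 in 5-HT libraries 1 and 2. Over all protein-coding promoters the shares were 59.3, 63.1, 61.4, 57.8 and 49.2%. The DA libraries 2 and 3 had nearly the same number of peaks in the genome and of promoters with a peak, but 7 and 1 Hox promoters. The median number of libraries with a promoter peak was 0 of 5 for the Hox genes and 4 of 5 for all protein-coding genes. Peaks anywhere in the gene body were found for 4, 10, 3, 8 and 2 of the 38 Hox genes in the 5 libraries, and for 66.1, 70.7, 69.8, 63.3 and 54.5% of all protein-coding genes.

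Within 500 bp of the most upstream TSS, the median GC content was 56.6% for Hox genes (44.0 to 73.7%) and 54.8% for all genes, and 20 of 38 Hox promoters (52.6%) and 44.7% of all promoters were rich in CpG. Rich in CpG means here a GC content of at least 50% and a ratio of observed to expected CpG of at least 0.6. Among these 20 Hox genes, a promoter peak was found for 3, 5 and 1 in the DA libraries and for 3 and 1 in the 5-HT libraries. A peak at any TSS of the gene was counted, while CpG content was read at the most upstream TSS alone. The Hoxa3 peak, counted in DA library 2 and 5-HT library 1, lies at another TSS than the one read for CpG. Of the 9930 CpG-rich promoters of all genes, 94.7, 97.3, 95.5, 93.9 and 82.8% had a peak by the same count.

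**Figure D1:**
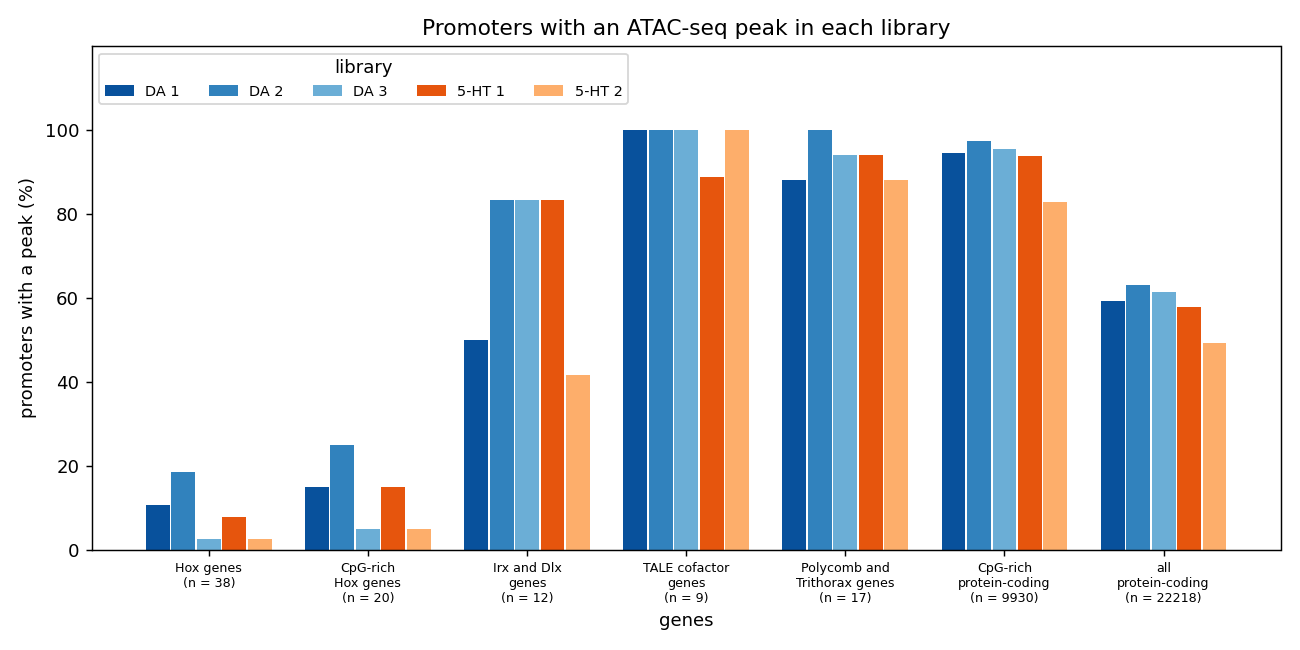
Percent of promoters with an ATAC-seq peak (vertical axis) in each of the 5 libraries (bars) for the gene lists named on the horizontal axis, with the number of genes of each list. The bars of the 38 Hox genes lie between 2.63 and 18.4%, and those of all protein-coding genes between 49.2 and 63.1%.

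Among the anterior genes, those of paralogue groups 1 to 3, a promoter peak was found for 2 of 7, Hoxa3 and Hoxd1, and each had it in DA library 2 and 5-HT library 1. Hoxa3, which patterns the hindbrain and the pharyngeal arches, scored 4.41 in DA library 2 and 6.41 in 5-HT library 1, and 0 in DA libraries 1 and 3 and in 5-HT library 2. The region (chr6:52122598-52122806, mm9) overlaps an exon and covers a Hoxa3 TSS. Its score stood at percentile 49.5 in DA library 2 and 81.9 in 5-HT library 1, and at 10.2 and 62.7 among the promoters with a peak in the same library.

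Hoxd1, at the anterior end of its cluster, scored 4.00 in DA library 2 and 4.29 in 5-HT library 1, and 0 elsewhere, in a region of 752 bp over its TSS (chr2:74600796-74601547). These stood at percentiles 40.2 and 44.6 of all peaks of the library, and at 6.99 and 17.8 among its promoters with a peak. For both genes 1 library of each group had the peak, so the groups overlapped. Without 5-HT library 2, the number of Hox promoters with a peak in every 5-HT library used is 3 in place of 1, as Hoxa3 and Hoxd1 join Hoxa7. That count rests on 5-HT library 1 alone, in which 57.8% of all protein-coding promoters had a peak. Hoxa2, the Hox gene expressed farthest forward in the hindbrain, had no promoter peak in any library. One region in an exon of Hoxa2 (chr6:52114484-52114778) had a peak in 5-HT library 1, at the lowest score of that library (3.37). Hoxb1, Hoxb2, Hoxb3 and Hoxd3 had no promoter peak in the 5 libraries.

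Of the 15 central genes, groups 4 to 8, Hoxa7 had a promoter peak and the other 14 had none. Hoxa7 acts in the patterning of the trunk. Its promoter scored 5.93, 6.95 and 6.42 in DA libraries 1 to 3 and 5.08 and 2.92 in 5-HT libraries 1 and 2. The region (chr6:52171584-52171961) covers the most upstream Hoxa7 TSS and the first bases of an exon, on the side of Hoxa9. Its percentiles were 62.0, 77.1 and 79.0 in the DA libraries, and 64.0 and 5.99 in the 5-HT libraries. Among promoters with a peak in the same library they were 28.5, 30.1, 34.1, 36.6 and 2.26, so that more than 3 in 5 of the promoters with a peak scored higher than Hoxa7 in each library. Its median percentile over the 5 libraries was 64.0, and that of every other listed Hox promoter was 0, so that no second promoter could be ranked in Hoxa and none in the other 3 clusters.

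Of the 16 posterior genes, groups 9 to 13, a promoter peak was found for Hoxa10, Hoxc10, Hoxd9 and Hoxd13, in DA libraries 1 or 2. These 4 are named because of their values. Hoxa10 scored 4.03 in DA library 1 and 4.22 in DA library 2, Hoxd9 4.00 and 3.39, and Hoxd13 4.06 and 3.31. Hoxc10 scored 4.18 in DA library 2 alone. DA library 3 and both 5-HT libraries were at 0 for the 4 genes, which act in the trunk, the limbs and the genital region and are not known as genes of the midbrain. Among promoters with a peak in the same library their scores stood at percentiles from 1.74 to 8.74. Without DA library 3, 4 promoters had a peak in both other DA libraries (Hoxa7, Hoxa10, Hoxd9 and Hoxd13), and 3 of them had none in the 5-HT libraries. The shares of all promoters under this rule were not counted, so whether these numbers are high or low cannot be said.

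With equal numbers of peaks the posterior genes lost all promoter peaks. Hoxa7 then had a peak in all 5 libraries and Hoxa3 and Hoxd1 in 5-HT library 1, and the other 35 Hox promoters had none, against 44.9% of all promoters. At that number, the share of all protein-coding promoters with a peak was 45.1, 45.4 and 43.3% in DA libraries 1 to 3 and 49.0 and 49.2% in the 5-HT libraries.

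The clusters as a whole were compared by the percent of their span that lay in regions with a peak. The width of a region is that of the list shared by the 5 libraries. Over the 4 spans, 0.666, 1.24 and 0.279% were covered in DA libraries 1 to 3, and 0.778 and 0.101% in the 5-HT libraries, against 1.60, 2.13, 2.12, 1.27 and 0.884% of the genome. The spans held 10, 24 and 6 peaks of the DA libraries and 14 and 2 of the 5-HT libraries. These make up 0.0189, 0.0258, 0.00637, 0.0362 and 0.00875% of the peaks of each library, and the spans make up 0.0211% of the genome. By length alone, the spans thus held more than their share of the peaks in DA library 2 and 5-HT library 1, and less in DA libraries 1 and 3 and 5-HT library 2. At equal numbers the spans held 3, 4 and 2 peaks of the DA libraries and 7 and 2 of the 5-HT libraries. That was more than their share in 5-HT library 1 alone. With equal numbers of peaks, 0.155, 0.156 and 0.104% of the spans were covered in the DA libraries and 0.399 and 0.101% in the 5-HT libraries, against 0.827, 0.779, 0.799, 0.871 and 0.884% of the genome.

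The Hoxb and Hoxc clusters were covered in DA libraries only. Hoxb was covered at 0.142, 0.367 and 0% in DA libraries 1 to 3 and at 0% in both 5-HT libraries (DA mean 0.170% ± 0.185, SD, n = 3). The difference of 0.170 percentage points had p = 0.4 in a two-sided exact permutation test, and 0.8 after Benjamini-Hochberg adjustment over the 4 clusters. Hoxc was covered at 0.544, 0.645 and 0.151% in the DA libraries and at 0% in the 5-HT libraries (DA mean 0.447% ± 0.261, SD, n = 3). All 3 DA libraries stood above both 5-HT libraries, with an exact permutation p = 0.2 (adjusted p = 0.8) for the difference of 0.447 points. With 3 against 2 libraries, no p below 0.1 can be reached. Without DA library 2 the Hoxb difference was 0.0712 points, and without DA library 3 it was 0.254. With equal numbers of peaks the differences were 0.0191 points for Hoxb and 0.101 for Hoxc.

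The Hoxa and Hoxd clusters were covered in both groups. Hoxa was covered at 0.847, 1.65 and 0.833% in DA libraries 1 to 3 and at 1.88 and 0.330% in 5-HT libraries 1 and 2. The means were 1.11% ± 0.467 (SD, n = 3) and 1.10% ± 1.09 (SD, n = 2), and differed by 0.00567 points (exact permutation p = 1, adjusted p = 1). Omitting peaks at the lowest score of a library, chosen after seeing the data, left Hoxa covered at 0.755% in 5-HT library 1. The Hoxa difference was then 0.567 points. Hoxd was covered at 1.50, 2.98 and 0.348% in the DA libraries and at 1.90 and 0.163% in the 5-HT libraries. The means were 1.61% ± 1.32 (SD, n = 3) and 1.03% ± 1.23 (SD, n = 2), and differed by 0.577 points (exact permutation p = 0.6, adjusted p = 0.8). In both clusters the groups overlapped, and 5-HT library 1 held 7 peaks and 5-HT library 2 held 1.

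The direction of the Hoxa and Hoxd differences depended on single libraries. Without 5-HT library 2 the difference (DA minus 5-HT) was -0.768 points for Hoxa and -0.290 for Hoxd, and without 5-HT library 1 it was 0.779 and 1.44. Without DA library 2 it was -0.264 and -0.107. Without DA library 1 it was 0.137 and 0.632, and without DA library 3 it was 0.144 and 1.21. With equal numbers of peaks it was -0.0912 for Hoxa and -0.596 for Hoxd. At that number the Hoxd span was covered at 0.422, 0.156 and 0% in the DA libraries, 1.41% in 5-HT library 1 and 0.163% in 5-HT library 2.

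**Figure D2:**
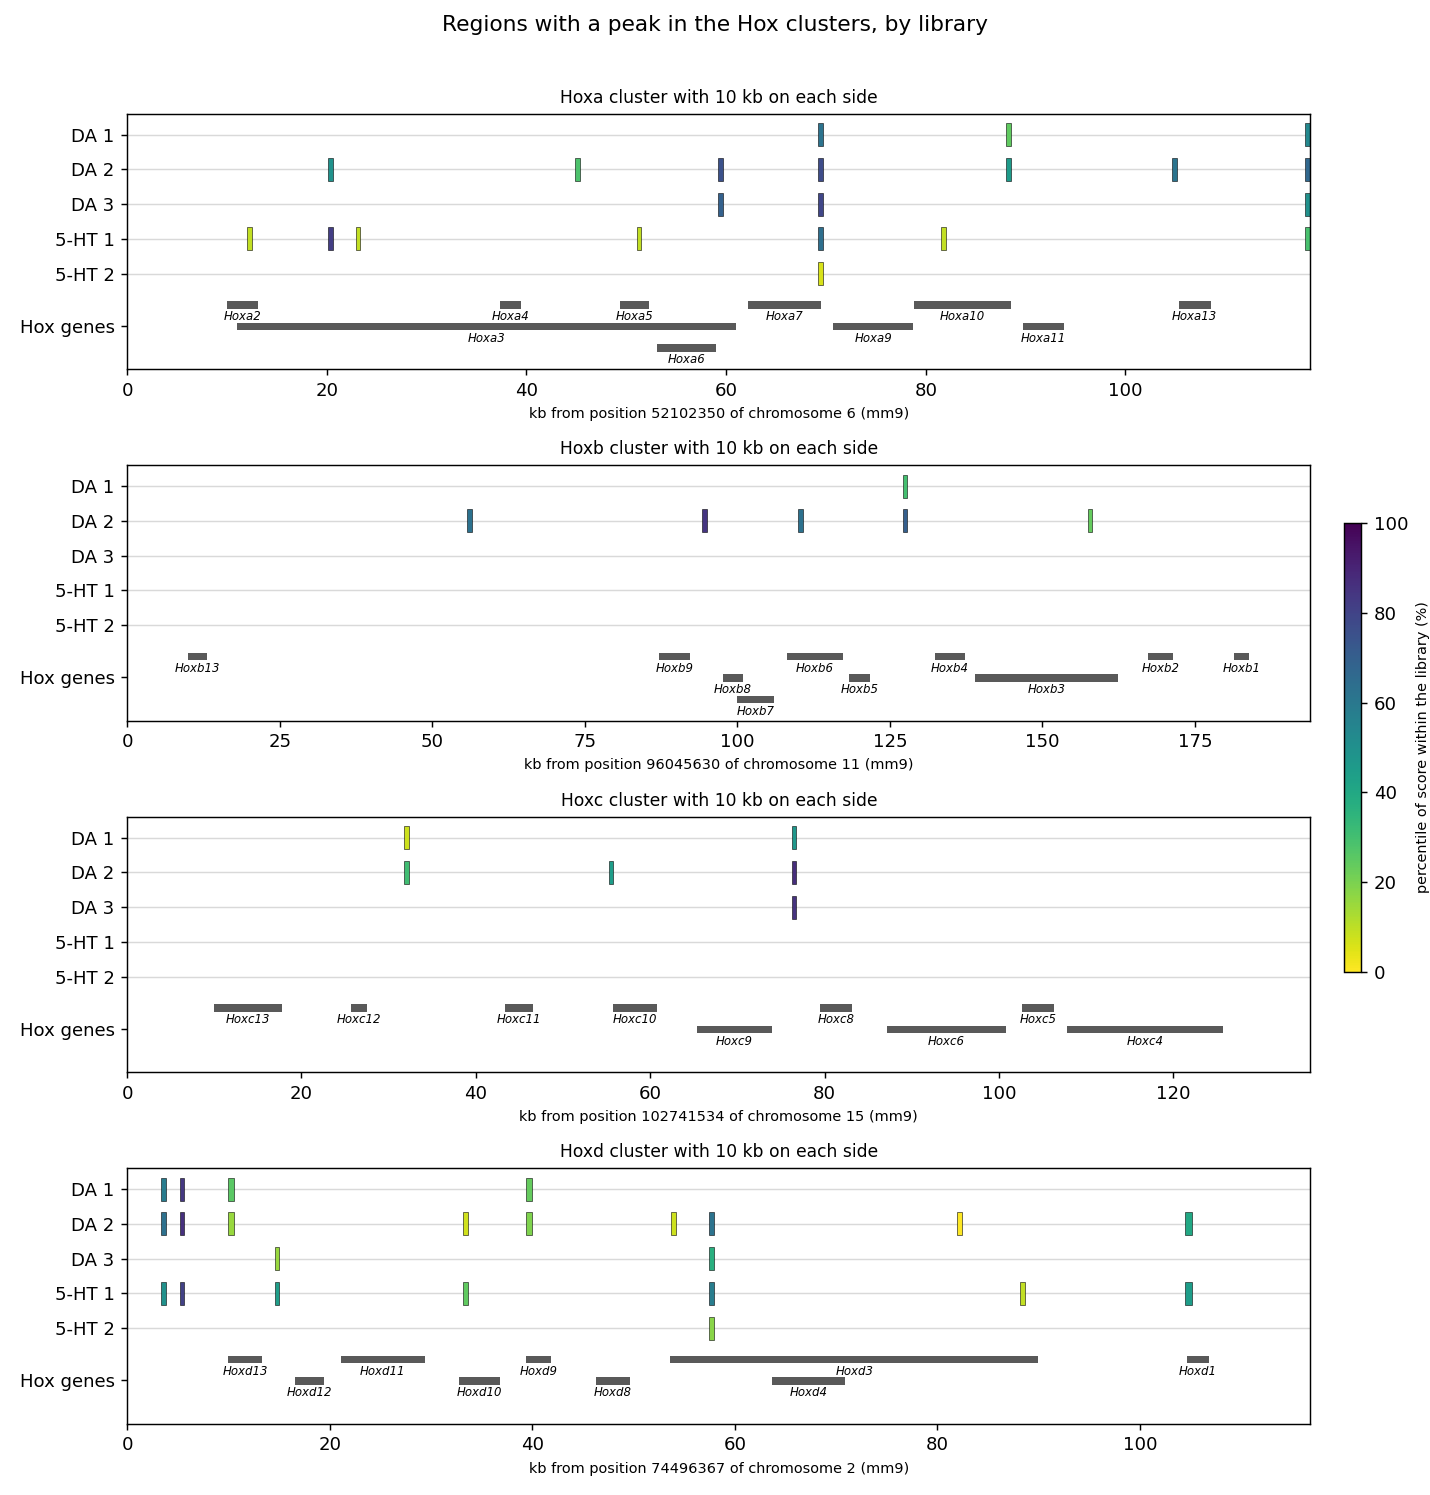
Positions of peaks in the 4 Hox clusters (horizontal axes, kb from the start of the span) in each library (lanes), coloured by the percentile of the score within the library, above the bodies of the listed Hox genes. Boxes are widened where needed to be visible. The Hoxa7 TSS has a box in all 5 lanes, and Hoxb and Hoxc have none in the 5-HT lanes.

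The 30 regions were spread over Hoxa (11), Hoxb (5), Hoxc (3) and Hoxd (11). A peak in a single library was found for 14 of them (46.7%, against 43.8% of all regions), 9 in DA library 2 and 5 in 5-HT library 1. All 3 DA libraries shared 3 (10.0%, against 34.9%), both 5-HT libraries 2 (6.67%, against 14.4%), and all 5 libraries 1 (3.33%, against 12.9%). A peak in the 3 DA libraries only was found in 1 region (3.33%, against 13.4%), and a peak in the 2 5-HT libraries only in none (0.394% of all regions). Of the 30, 12 overlapped an exon of a Hox gene, 7 lay in introns only, and 11 lay outside the gene bodies. Neither this split nor that of the single-library regions by library was counted over all regions.

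There was 1 region per 10.4 kb in Hoxa, 38.8 kb in Hoxb, 45.2 kb in Hoxc and 10.6 kb in Hoxd, and 1 per 20.3 kb of the genome. In Hoxc 59.1 kb from the last region to the end of the span (chr15:102818146-102877274) were without one, and the stretch holds Hoxc8, Hoxc6, Hoxc5 and Hoxc4. The longest such stretch in Hoxb measured 56.1 kb and holds Hoxb13, that in Hoxd 24.3 kb with Hoxd4, and that in Hoxa 21.7 kb with Hoxa4.

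Besides the Hoxa7 TSS, 1 region had a peak in both 5-HT libraries. It lies in an intron of Hoxd3 (chr2:74553946-74554136) and within the lincRNA gene 1700109F18Rik (chr2:74541305-74554187, minus strand), at the end where that gene starts. It scored 0, 5.22 and 3.57 in DA libraries 1 to 3 and 4.81 and 3.09 in the 5-HT libraries. At equal numbers of peaks it was found in the 2 5-HT libraries and in no DA library.

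The region found in the 3 DA libraries only lies between Hoxc9 and Hoxc8 (chr15:102817941-102818145), ends 2908 bp from the Hoxc8 TSS and lies within the non-coding gene Gm20398. It scored 4.97, 9.01 and 7.51 in DA libraries 1 to 3, at percentiles 47.2, 86.9 and 85.3, and was at 0 in both 5-HT libraries. These were the highest scores of any Hox region in DA libraries 2 and 3. At equal numbers of peaks it was found in DA libraries 2 and 3. The remaining region of the 3 that the DA libraries share, named because of its values, begins 9604 bp from the nearest Hoxa13 TSS, outside the gene bodies (chr6:52220478-52220755). It scored 5.32, 5.65 and 4.01 in the DA libraries, 3.86 in 5-HT library 1 and 0 in 5-HT library 2.

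Peaks in 5-HT libraries only were found in 5 of the 30 regions (16.7%, against 4.92% of all regions), each in 5-HT library 1 alone and each at 3.37, the lowest score of that library. They lie in exons of Hoxa2, Hoxa5 (chr6:52153437-52153823), Hoxa10 (chr6:52184013-52184250) and Hoxd3 (chr2:74584673-74584900), and in an intron of Hoxa3 (chr6:52125296-52125661). That lowest score is shared by 9.31% of the peaks of 5-HT library 1, and by 5 of its 14 peaks in the Hox spans.

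In each cluster the region with the highest minimum percentile over the libraries with a peak was also read. In Hoxd it lies between Evx2 and Hoxd13 (chr2:74501699-74501880) and scored 8.39 and 8.77 in DA libraries 1 and 2, 6.28 in 5-HT library 1 and 0 in the others. In Hoxa it lies upstream of Hoxa6, in an intron of the longest Hoxa3 transcript (chr6:52161632-52161929), and scored 6.69 and 5.27 in DA libraries 2 and 3. The Hoxa6 gene, on the minus strand, starts close by at position 52161355. Its protein-coding TSS lies more than 1 kb from the region, so no Hoxa6 promoter peak was counted. In Hoxb the region with the highest minimum lies between Hoxb9 and Hoxb8 (chr11:96140225-96140335) and scored 8.35 in DA library 2 alone. In Hoxc it was the region between Hoxc9 and Hoxc8.

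A window of 200 bp around the middle of each region was searched for short words, with either strand counting as a match. In 9 of the 30 Hox regions, which are narrower than 200 bp, the window takes in the bases beside the region. The PBX-HOX word TGATNNAT, to which Hox proteins bind with their PBX partners, was found in 3 of 30 Hox regions (10.0%) and in 7.87% of all regions. The CTCF core words AGGGGGC and AGGTGGC were found in 4 of 30 (13.3%) and in 10.1% of all regions. With AGAGGGC and AGATGGC, which complete the 4 forms of this core and were added after the sequences had been read, the numbers were 8 of 30 (26.7%) and 20.6%. No Hox region held the DR5 element of retinoic acid receptors, which is AGGTCA or AGTTCA repeated in the same direction with 5 bases between (0.0175% of all regions). The windows of Hox regions were richer in GC than those of all regions, with medians of 59.3 and 49.0%. The shares of the PBX-HOX and CTCF words are near those of all regions, and a match does not show that a factor was bound.

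The windows of 5 regions, 3 of them wider than the region, are shown, as they carry the results by library. They are read on the plus strand of mm9, and capitals mark CTCF core words on either strand. The first is the Hoxa7 TSS region, open in all 5 libraries (chr6:52171673-52171872), and holds AGATGGC on both strands. The second is the DA region between Hoxc9 and Hoxc8 (chr15:102817943-102818142), with AGGTGGC. The third is the region between Hoxb9 and Hoxb8 (chr11:96140180-96140379), with AGATGGC. The fourth and the fifth, in the Hoxd3 intron (chr2:74553941-74554140) and between Evx2 and Hoxd13 (chr2:74501690-74501889), hold none of the words. The region upstream of Hoxa6, which has the highest minimum percentile in Hoxa, is not shown, and its window holds none of the words either.
Hoxa7 TSS: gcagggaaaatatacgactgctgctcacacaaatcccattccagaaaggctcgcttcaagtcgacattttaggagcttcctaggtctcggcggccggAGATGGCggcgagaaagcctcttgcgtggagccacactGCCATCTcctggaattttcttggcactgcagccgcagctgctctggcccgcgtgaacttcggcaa
Hoxc9-Hoxc8: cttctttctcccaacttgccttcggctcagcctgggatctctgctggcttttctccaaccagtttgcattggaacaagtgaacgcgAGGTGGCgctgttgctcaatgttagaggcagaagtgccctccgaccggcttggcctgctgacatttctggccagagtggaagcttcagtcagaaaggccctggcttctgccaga
Hoxb9-Hoxb8: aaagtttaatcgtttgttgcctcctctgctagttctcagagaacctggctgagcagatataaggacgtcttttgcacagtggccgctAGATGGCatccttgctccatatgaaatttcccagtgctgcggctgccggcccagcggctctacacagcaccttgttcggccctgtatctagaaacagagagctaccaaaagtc
Hoxd3 intron: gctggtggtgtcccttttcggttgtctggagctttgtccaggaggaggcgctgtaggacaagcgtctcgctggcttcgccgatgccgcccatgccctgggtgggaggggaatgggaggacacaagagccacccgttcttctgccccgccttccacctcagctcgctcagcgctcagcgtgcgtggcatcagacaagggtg
Evx2-Hoxd13: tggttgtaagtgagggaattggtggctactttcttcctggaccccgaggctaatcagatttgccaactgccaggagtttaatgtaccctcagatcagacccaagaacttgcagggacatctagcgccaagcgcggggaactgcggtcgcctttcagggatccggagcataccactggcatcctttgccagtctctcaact

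Of 25 non-coding genes of the clusters, 18 had no peak at the promoter in any library, against 81.8% of the 14905 non-coding genes of the annotation. Of the others, 6 had one in 1 or 2 libraries, 1 had one in 4 libraries, and none had one in all 5 (8.8% of all non-coding genes). Among the 6, Gm15050, 6720416L17Rik and Gm20398 had it through the regions counted above at the Hoxa3, Hoxd1 and Hoxc10 promoters. These peaks cannot be assigned to either gene of a pair. By type, 3 of 6 lincRNA genes, 7 of 11 processed transcripts, 6 of 6 miRNA genes and 2 of 2 pseudogenes had no peak, against 31.3, 67.8, 85.2 and 93.3% of all genes of the type. A peak in all 5 libraries was found at 48.4, 13.1, 6.98 and 1.94% of all genes of these types. The gene with a peak in 4 libraries was 1700109F18Rik, through the region in the Hoxd3 intron. The miRNA genes Mir10a, Mir10b, Mir196a-1, Mir196a-2, Mir196b and Mir615, which lie within the clusters, had no peak at the start of the annotated gene.

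The 2 nearest protein-coding genes on each side of the clusters, 16 in all, were divided between promoters with a peak in all 5 libraries (7), in 4 libraries (2) and in none (7), near the 48.1% of all promoters with a peak in all 5 libraries and the 35.5% with none. Evx1 and Evx2, homeobox genes beside Hoxa13 and Hoxd13, had no promoter peak. Lnp, the next gene beyond Evx2 and 88875 bp from Hoxd13, scored 7.76, 9.73 and 7.95 in the DA libraries and 7.33 and 3.24 in the 5-HT libraries. Skap2, 149802 bp from the Hoxa cluster, scored 9.08, 14.2, 8.59, 7.77 and 3.35 in the same order.

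Genes whose products work with Hox proteins had promoter peaks at most members, as did the CpG-rich promoters of all genes. TALE homeobox genes encode the PBX, MEIS and PKNOX cofactors of Hox proteins, and 9 of 9 had a promoter peak in all 3 DA libraries, 8 of 9 in both 5-HT libraries and 8 of 9 in all 5. Over all promoters these shares were 58.5, 48.4 and 48.1%, and over the CpG-rich ones 94.0, 82.2 and 82.0%. The TALE counts were 7, 8 and 7 of 9 with equal numbers of peaks, against 40.2, 44.7 and 37.8% of all promoters. With all peaks used, the exception was Pbx2, which was at 0 in 5-HT library 1 and scored 4.34, 4.84, 3.51 and 3.30 in the other 4. Among 17 Polycomb and Trithorax genes, which keep Hox genes silent or active, 15 had a peak in all 5 libraries, against 48.1% of all promoters and 82.0% of the CpG-rich ones. At equal numbers of peaks, 10 had one in all 3 DA libraries, 14 in both 5-HT libraries and 10 in all 5, against 69.8, 76.9 and 66.6% of the CpG-rich promoters. With all peaks used, the exceptions were Ezh1, with 4.46 and 3.26 in DA libraries 2 and 3 and 3.44 in 5-HT library 1, and Cbx7, with 3.41 in DA library 2.

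Genes that act upstream of the Hox genes were divided. Of 8, 4 had a promoter peak in all 3 DA libraries and 3 in both 5-HT libraries, against 58.5 and 48.4% of all promoters. Egr2, which acts in rhombomeres, and the retinoic acid receptor genes Rara and Rarb had one in all 5 libraries. Rarg had one in the 3 DA libraries only (4.50, 5.35 and 4.92), and Cdx1 in DA libraries 2 and 3 (3.13 and 3.03). Cdx2, Cdx4 and Gbx2 had none. Of the 8, with equal numbers of peaks, 1 had a peak in all 3 DA libraries, 3 in both 5-HT libraries and 1 in all 5, against 40.2, 44.7 and 37.8% of all promoters, and Rarg and Cdx1 had none in any library. Of the 12 Irx and Dlx genes, which are clustered homeobox genes as well, 6 had a promoter peak in all 3 DA libraries, 5 in both 5-HT libraries and 3 in all 5 (Irx2, Irx5 and Dlx6), against 58.5, 48.4 and 48.1% of all promoters. For 1, Dlx4, no library had one, against 35.5% of all promoters. Dlx5 had one in the 3 DA libraries only (4.19, 4.47 and 4.19). Of the 12, with equal numbers of peaks, 1 had a peak in all 3 DA libraries and 3 in both 5-HT libraries, and 6, Dlx5 among them, had none in any library, against 40.2, 44.7 and 44.9% of all promoters. The median number of libraries with a promoter peak was 4 for the Irx and Dlx genes and 0 for the Hox genes with all peaks used, and 0.5 and 0 with equal numbers of peaks.

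The 8 flanks of 100 kb differed in their coverage. In the 100 kb beyond the Hoxb1 end of the Hoxb span, peaks covered 2.45, 3.17 and 2.63% in DA libraries 1 to 3 and 1.79 and 0.732% in the 5-HT libraries. Beyond the Hoxb13 end they covered 0, 0.891 and 0% and 0.191 and 0.191%, and beyond the Hoxa13 end 0.385, 1.16 and 0.863% and 0.385 and 0%, in the same order. Beyond the Hoxc4 end they covered 2.14, 5.44 and 2.80% and 3.75 and 1.42%, and beyond the Hoxc13 end 0, 0.476 and 0% and 0 and 0%. The Hoxc4 flank was above the genome in every library, and the Hoxb13, Hoxa13, Hoxc13 and Hoxd1 flanks were below it in every library. Beyond the Hoxa2 end the cover was 0.935, 2.20 and 1.30% and 0.407 and 0%. For Hoxd it was 1.26, 1.78 and 1.26% and 1.78 and 1.26% beyond the Hoxd13 end, and 1.21, 1.21 and 1.21% and 0.887 and 0% beyond the Hoxd1 end.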

How the data were processed

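Per the study's methods, Bowtie2 placed the reads on mm9 after trimming by Trimmomatic, Picard removed duplicates, and MACS2 called the peaks of each library. Versions are not given in the sources used here. The deposited values of the authors are a score per library for 131942 regions, with 0 for no peak and no named scale. Other columns that usually hold signal and p-values hold no values. The chromosome name of 1 line was misspelled and was corrected.

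Regions less than 100 bp apart were merged into 131065. Promoters and gene bodies came from GENCODE M1 on NCBIM37, the same build as mm9. Percent coverage was compared by two-sided exact permutation tests, and counts were set beside those of all genes or regions. The members and lists were chosen with earlier results of these data known. All 38 genes were accounted for by promoter class. Values per library were given for Hox promoters with a peak in a 5-HT library, the 2 promoters per cluster with the highest median percentile, regions shared by both 5-HT libraries or seen in 5-HT libraries alone, and the region of each cluster with the highest minimum percentile. Context lists were counted, with values for members that differed. Chosen after the data had been seen were the CpG-rich class and its limits, the CTCF words AGAGGGC and AGATGGC, gene bodies, the shares over all non-coding genes, the flanking 100 kb, the stretches without peaks, the spacing of regions and the omission of peaks at the lowest score of a library. One Hox gene, the 2 regions at it and the 3951 bp of its span there, and 2 genes of the context lists, are not reported here, and were left out of the span length, coverage, and region and list counts. RNA-seq was not analysed here. Alternatives changed the number of peaks, promoter window, TSS, overlap, span margin, merging and libraries used. The read depth is unknown, as no counts are given. Software was matplotlib 3.10.9, samtools 1.23.1, pysam 0.24.0, SciPy 1.17.1, pandas 2.3.3, NumPy 2.4.6 and Python 3.11.15. The counting was tested on simulated data.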

Additional observations from a re-analysis of the deposited data

How the results depend on the processing

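With 10000 peaks per library, the numbers of Hox promoters with a peak in all 3 DA, both 5-HT and all 5 libraries each fell from 1 to 0. Leaving out 1 library gave 1 to 4 promoters for the DA libraries, 1 to 3 for the 5-HT libraries and 0 to 3 for the DA libraries only. The other alternatives changed none of the 5 promoter counts, of which those above 0 rest on Hoxa7 alone. The numbers of Hox promoters per library were not read under these alternatives. The peaks of Hoxa10, Hoxc10 and Hoxd9 lie 45, 109 and 19 bp from the nearest TSS and do not cover it, so those numbers depend on the promoter window. Regions in the spans numbered 30, and 9 at equal numbers of peaks and 2 with 10000 peaks. The shares of all promoters with 10000 peaks or without 1 DA library were not counted. The numbers of all regions at equal numbers and with 10000 peaks were not counted either. Using fewer peaks lowers such counts over all genes and regions too, so these falls are not a result about the Hox genes. Leaving out 1 library gave 21 to 30.

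Coverage differences (DA minus 5-HT, percentage points) changed direction for Hoxa at equal numbers of peaks (-0.0912), with 10000 peaks (-0.0912) and without a margin (-0.134), and for Hoxd at equal numbers (-0.596) and with 10000 peaks (-0.0260). With a margin of 50 kb they were 0.301, 0.296, 0.268 and 0.463 for Hoxa, Hoxb, Hoxc and Hoxd, in the direction found with 10 kb. With 10000 peaks they were 0 for Hoxb and 0 for Hoxc. Leaving out 1 library gave -0.768 to 0.779 for Hoxa and -0.290 to 1.44 for Hoxd. The cause was not tested. Omitting peaks at the lowest score, an alternative chosen after seeing the data, gave 0.567 for Hoxa and 25 regions.

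The groups share replicate numbers 1 and 2, but nothing says that a number marks a shared embryo or day. As a replicate block, the mean paired differences were 0.144, 0.254, 0.595 and 1.21 for Hoxa, Hoxb, Hoxc and Hoxd (exact p 1, 0.5, 0.5 and 1), in the direction of the unpaired values. The exact p ranged from 0.2 to 1 over the alternatives. The unknown depth and the small numbers of peaks in 5-HT library 2 limit what an absent peak says.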
